A study of Mus musculus with 6 samples.

Results

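The integrin and laminin genes are the receptor chains and matrix chains through which cells hold on to basement membrane. The set described here holds every gene in the table whose symbol names an integrin alpha chain, an integrin beta chain or a laminin alpha, beta or gamma chain: 37 of 31854 rows, with 18 integrin alpha, 8 integrin beta and 11 laminin genes, and no symbol on more than 1 row. RNA was sequenced from 4T1, a mouse mammary carcinoma line, in 2 groups of 3 samples. The control cells, whose genotype is given as WT, carried empty pLVX, a lentiviral expression vector, and the other cells, whose genotype is given as LINC01133 overexpression, carried pLVX-LINC01133, which expresses a human long noncoding RNA. No clone, pool or passage is named, and it is not stated whether both groups were made from the same parental culture or whether samples of a group were separate cultures. "Higher", "rose" and "fell" therefore compare these groups and are not by themselves an effect of LINC01133. A p-value sets the difference between the groups only against how far samples of a group lay apart, part of which may be technical. Total counts per library were 25521469 to 27035127 in the controls and 26719396 to 33877549 with LINC01133, of which the ribosomal RNA row Rn45s took 25.4% to 27.9% and 21.0% to 23.0%.

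An integrin is a pair of 1 alpha and 1 beta chain that spans the membrane. It binds matrix proteins outside the cell, and its tails bind talin, kindlin and other proteins that link it to actin or, for alpha6 beta4, to keratin. Laminins are cross-shaped trimers of 1 alpha, 1 beta and 1 gamma chain that form the sheet of the basement membrane. Mammary epithelial cells attach to them chiefly through alpha3 beta1, alpha6 beta1 and alpha6 beta4, the last of these in hemidesmosomes.

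Levels are given as CPM, the count relative to the library size after TMM scaling. Of 7 epithelial markers, all tested as described below, 5 rose and 2 fell with LINC01133, beside 44.5% and 40.5% of all genes tested. Epcam and Cdh1 passed the filter on low counts through their LINC01133 libraries alone. Krt5 and Krt14, the 2 that fell, passed it through their controls. The directions of these genes were thus fixed in advance. The sum of the 7 markers went from between 147.9 and 155.3 CPM to between 381.8 and 389.8 CPM. Most of the sum in the controls was Krt8 (145.3 ± 3.82 CPM, SD, n = 3). Most of the rise in the sum was Krt18, from 2.06 ± 0.213 to 158.2 ± 4.45 CPM. In the controls Epcam had no read and Cdh1 had 4 reads over the 3 libraries, against 78 and 138 with LINC01133. Both stayed low with LINC01133, Epcam at 0.794 ± 0.376 CPM and Cdh1 at 1.39 ± 0.124 CPM, beside 217.0 ± 3.03 CPM for Krt8. A defining marker of the labelled epithelial origin was thus absent from the controls and scarce with LINC01133. Of 6 fibroblast markers 4 were tested, of which 1 rose and 3 fell, beside the same shares of all genes. The sum of the 6 went from between 169.0 and 174.7 CPM to between 19.3 and 20.1 CPM, with Lum at 0 reads in both groups. Most of the control sum was Pdgfrb (106.7 ± 2.47 CPM) and Pdgfra (60.2 ± 2.18 CPM), which fell to 0.775 ± 0.251 and 13.55 ± 0.434 CPM. Dcn went the other way, from 1 read over the controls to 409, and passed the filter through its LINC01133 libraries alone.

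Of the 37 genes, 32 passed the filter on low counts and were tested with edgeR's quasi-likelihood test. A gene with a Benjamini-Hochberg adjusted p under 0.05 over all 14116 genes tested is said to be called, or to have risen or fallen. Of the 32, 25 rose, 4 fell and 3 were not called. Most genes of the table were called in this comparison: 84.9% in all, 44.5% higher and 40.5% lower. Called differences of at least 2-fold were found in 17 genes that rose and 3 that fell, with a background of 20.3% and 13.9%. The median log2 fold change was 1.13 over the 32 genes, and also 1.13 with genes of 0 to 3 control reads set at their bound or ratio, and 0.05 over all genes tested. A part of the rise was fixed by the filter: 9 of the 32 had a mean under 10 counts in the control libraries. These were Itga8, Lamc3, Itgb6, Itgal, Itgax, Itgad, Itga11, Lama4 and Itgb3. They passed through their LINC01133 libraries, and all 9 were called higher. Among the other 23 genes, 16 rose and 4 fell, with a background of 37% higher and 46.4% lower among the 12297 tested genes at or above that control level (83.5% called). At least 2-fold higher were 9 of the 23 and lower 3, with a background of 9.47% and 15.9%. Scaling by library size alone moved the median over all genes up by 0.24 (log2) and the calls over all genes to 7847 higher and 4228 lower, from 6280 and 5710, so differences of about that size depend on the scaling. For these genes it gave 26 higher and 3 lower.

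At least 1 CPM was reached by 20 of the 37 genes in the controls and by 29 with LINC01133. The 9 genes that crossed this level were all crossing upward, and none went below it. Over all rows with a count, 6.22% crossed it upward and 2.95% downward. In 29 of the 37 genes all LINC01133 libraries lay above all controls, in 6 all controls lay above, and in Itga11 and Itga5 the groups overlapped. Among the 32 tested genes these counts were 24, 6 and 2, with a background of 44.5% wholly above and 40.5% wholly below. The 24 include genes with a control mean under 10 counts, which passed the filter through their LINC01133 libraries, so their direction was fixed in advance. No background at a matched control level was made for these counts.

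**Figure D1:**
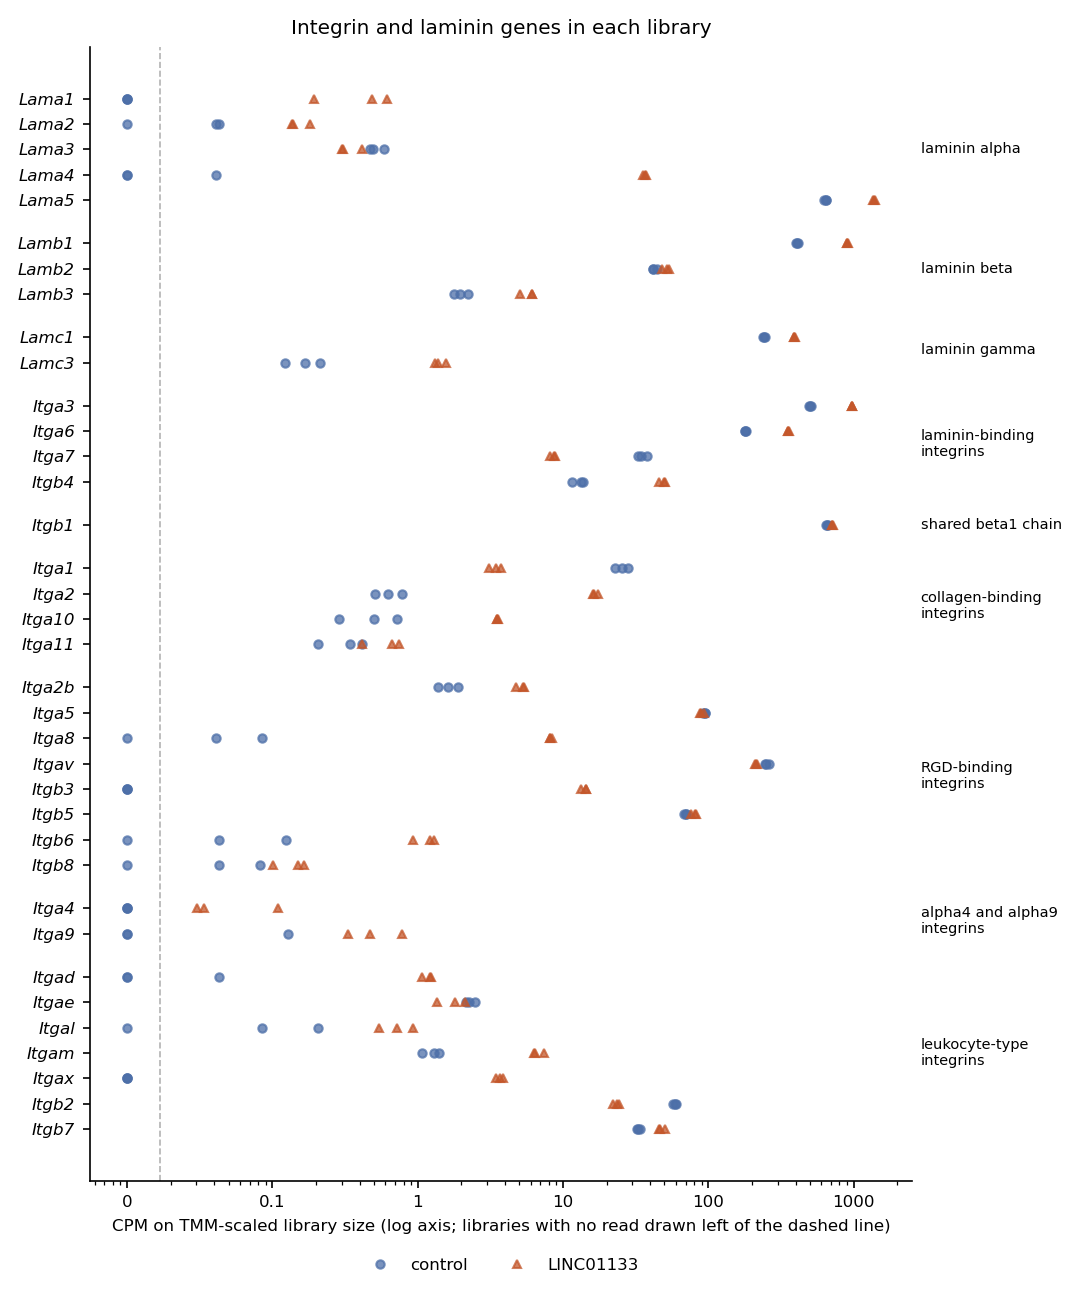
Level of the genes of the family in each of the 6 libraries, in CPM on a log axis, grouped by the role of the chain. Circles are control libraries and triangles LINC01133 libraries, and libraries with no read are drawn left of the dashed line. The strongly expressed chains (Lama5, Lamb1, Lamc1, Itga3, Itga6, Itgb1) were high in both groups, while Lama4, Itgb3, Itga8 and Itgax each had at most 3 reads over the 3 control libraries and 3.48 CPM or more in every LINC01133 library.

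Among the laminins, the widespread chains Lama5, Lamb1 and Lamc1 rose, Lama3 was not called, and Lama1 and Lama2 were below the filter. Lama5, the alpha chain of most epithelial basement membranes, went from 651.1, 629.1 and 648.8 CPM in the controls to 1371, 1404 and 1379 CPM with LINC01133. The groups were far apart beside a spread of 12.1 and 17.5 CPM (SD, n = 3), and the log2 fold change was 1.11 (SE 0.0200, edgeR adjusted p = 1.8e-90). Lamb1, the most widespread beta chain, went from 417.8, 410.6 and 398.9 CPM to 899.2, 922.5 and 905.9 CPM (log2 fold change 1.15, SE 0.0212). Lamc1, the gamma chain found in most laminins, stood at 243.1, 239.6 and 245.7 CPM and then at 392.1, 396.1 and 387.5 CPM (0.69, SE 0.0232). All 3 chains, which together make the alpha5 beta1 gamma1 laminin, were thus higher in every LINC01133 library, Lamc1 by less than the others.

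Set per kilobase of the deposited gene length, so that chains can be compared, Lama5 and Lamb1 were also the leading chains of their classes. Lama5 took 99.91% ± 0.00769 of the laminin alpha level in the controls and Lamb1 84.3% ± 0.736 of the beta level (SD, n = 3). The ratio of Lama5 to Lamb1 per kilobase was 1.31 ± 0.0406 in the controls and 1.27 ± 0.00117 with LINC01133, while that of Lamc1 to Lamb1 was 0.746 ± 0.0242 and 0.542 ± 0.00550. The summed level of the class rose 2.22-fold for alpha and 2.08-fold for beta chains. These shares and ratios are descriptions and were not tested.

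The windows of 250 bases before the RefSeq start (GRCm38.p6) of Lama5 (chr2:180225860-180226109, minus strand) and Lamb1 (chr12:31265043-31265292, plus strand) are shown because these were the most abundant laminin chains, and both rose. They are written 5′ to 3′ on the strand of the gene, and capitals mark the GC box (GGGCGG or CCGCCC), the E-box (CACCTG or CAGGTG) and the AP-1 motif (TGACTCA or TGAGTCA), each given as 1 sequence and its reverse complement. No motif overlaps another in these windows.
Lama5: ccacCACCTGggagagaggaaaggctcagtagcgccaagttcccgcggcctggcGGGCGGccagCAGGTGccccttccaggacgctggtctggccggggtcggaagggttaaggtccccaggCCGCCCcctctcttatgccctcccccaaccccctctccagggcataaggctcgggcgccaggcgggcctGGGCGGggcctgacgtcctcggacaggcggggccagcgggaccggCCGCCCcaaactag
Lamb1: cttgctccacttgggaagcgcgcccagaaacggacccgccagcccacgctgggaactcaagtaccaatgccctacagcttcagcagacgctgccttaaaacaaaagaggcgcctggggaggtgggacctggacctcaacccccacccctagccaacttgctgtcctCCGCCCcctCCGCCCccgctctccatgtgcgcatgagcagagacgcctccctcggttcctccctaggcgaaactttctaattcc
Lama5 held 4 GC boxes and 2 E-boxes, and Lamb1 held 2 GC boxes. The window of Lama5 held 19 CpG and that of Lamb1 14, against a median of 6 over all 32851 RefSeq windows. A GC box was found in 32.7% of these windows, an E-box in 17.2% and an AP-1 motif in 4.46%. RefSeq windows were found for 23 of the 37 genes. Of these, 8 held a GC box, 8 an E-box and 1 an AP-1 motif in at least 1 window. The 23 genes had 26 windows, so these counts are by gene and the shares above by window, and they are not directly comparable. A match describes the letters only.

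Lamb3 and Lama3, a beta and an alpha chain of the epithelial laminin that anchors hemidesmosomes, did not move together. Lamb3 went from 2.21, 1.96 and 1.79 CPM to 5.06, 6.15 and 6.10 CPM (log2 fold change 1.54, SE 0.151, edgeR adjusted p = 8.2e-18). Lama3 stayed low, with 12, 14 and 11 counts in the controls and 9, 15 and 10 with LINC01133 (-0.58, SE 0.402, edgeR adjusted p = 0.17). In CPM its control libraries (0.469 to 0.583) lay above the others (0.302 to 0.414), but at 9 to 15 reads per library the difference was not resolved. Per kilobase, Lamb3 was 7.81 ± 1.15 times the level of Lama3 in the controls and 34.5 ± 5.47 times with LINC01133.

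Lama4, the alpha chain of laminins in vessel walls and mesenchymal basement membranes, was nearly absent from the controls, with 1, 0 and 0 counts. With LINC01133 it had 1075, 1352 and 1179 counts, or 36.5, 37.3 and 35.6 CPM. The ratio of the summed counts per library size was 2622 (exact 95% interval 470.4 to 103600, counting error only). Lama4 passed the count filter through its LINC01133 libraries alone, so a test of it could only find a rise (edgeR adjusted p = 2e-87). It then made up 3.16% ± 0.0507 of the laminin alpha level per kilobase, next to 96.8% ± 0.0505 for Lama5. The sum of 6 endothelial markers went from between 0.0833 and 0.598 CPM to between 6.11 and 6.73 CPM. Most of that was Pecam1, with 11 reads over the controls and 544 with LINC01133. Tek had 2 and 67 reads, Kdr 3 and 20, Tie1 2 and 9, Emcn 1 and 3, and Cdh5 no read and 1 read. Pecam1 and Tek were the only 2 tested, and both were called higher (log2 fold change 5.13 and 4.41). Each had passed the count filter through its LINC01133 libraries. In bulk RNA, fewer cells of a type and less RNA per cell cannot be told apart.

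Lamb2, Lamc3, Lama1 and Lama2 were minor chains. Lamb2, the beta chain of the neuromuscular junction and the kidney filter, went from 41.4, 41.7 and 44.4 CPM to 48.2, 52.1 and 53.45 CPM (log2 fold change 0.27, SE 0.0457). It rose by less than Lamb1, and its share of the beta level per kilobase went from 14.9% ± 0.797 to 8.67% ± 0.372. Lamc3, a gamma chain of restricted distribution, went from 3, 4 and 5 counts to 39, 50 and 52 counts (3.06, SE 0.384). Lama1, the alpha chain of the first embryonic basement membranes, had no read in the controls and 18, 7 and 16 counts, at least 9.94-fold higher with the group's floor set at 3 counts. Lama2, the laminin chain of muscle and peripheral nerve, had 2 reads over the controls and 15 with LINC01133. Neither Lama1 nor Lama2 was tested.

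**Figure D2:**
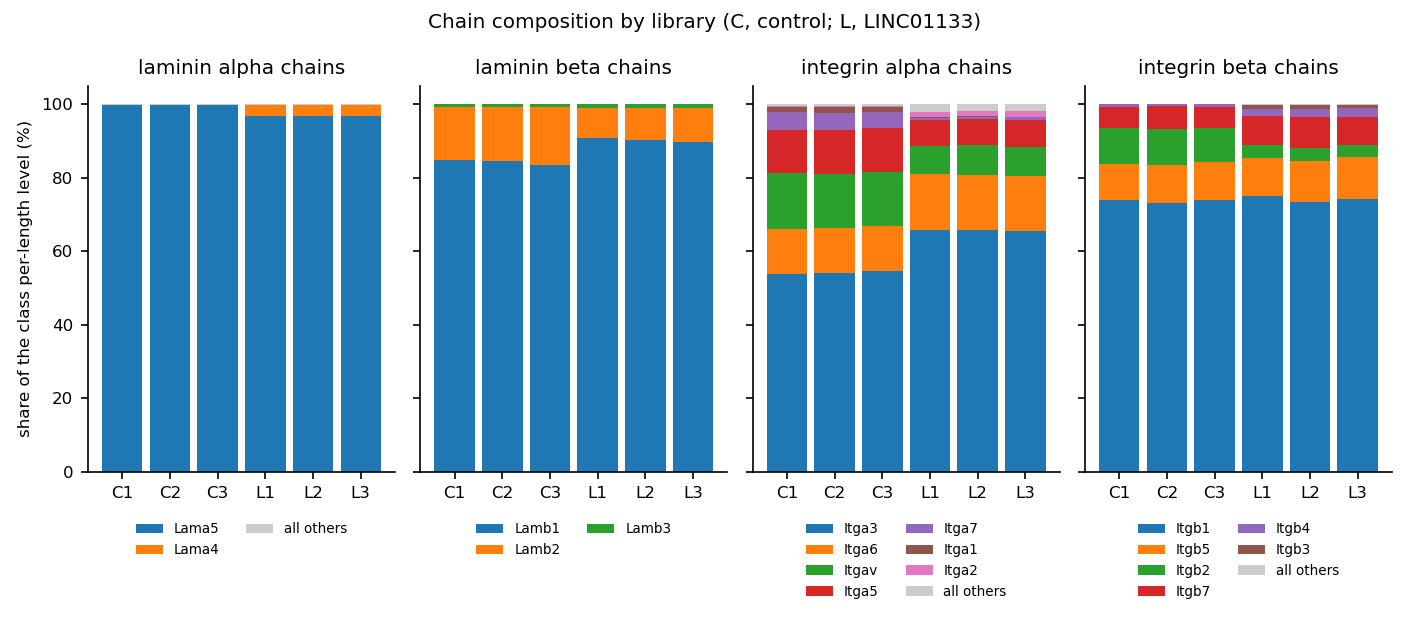
Share of each chain in the summed per-kilobase level of its class, in percent, for each library (C1 to C3, control; L1 to L3, LINC01133); chains that stayed under 1% in both groups are pooled as all others. Laminin gamma chains are not drawn. Lama5, Lamb1, Itga3 and Itgb1 held the largest share in every library, and Itga3 took 65.7% of the integrin alpha level with LINC01133 against 54.2% in the controls.

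The main laminin receptors of epithelial cells rose, and the muscle-type receptor fell. Itga3, which pairs with beta1, stood at 500.1, 497.6 and 507.6 CPM in the controls and at 970.8, 977.5 and 973.0 CPM with LINC01133 (log2 fold change 0.96, SE 0.0205, edgeR adjusted p = 1.4e-81). Itga6, which pairs with beta1 or beta4, went from 181.2, 179.5 and 179.4 CPM to 353.5, 358.3 and 353.9 CPM (0.98, SE 0.0241). Itgb4, whose long tail binds the hemidesmosome protein plectin, went from 13.2, 11.6 and 13.8 CPM to 45.9, 50.2 and 49.7 CPM (1.92, SE 0.0603). In these 3 genes the groups lay apart by many times their spread. Itga7, the laminin receptor chain of muscle, went from 37.6, 34.3 and 33.0 CPM to 8.12, 8.63 and 8.85 CPM, every LINC01133 library lying below every control (-2.03, SE 0.0692, edgeR adjusted p = 3.4e-58).

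The laminin-binding chains also shifted against each other. Per kilobase, Itgb4 stood at 0.0598 ± 0.00536 of the level of Itga6 in the controls and at 0.114 ± 0.00509 with LINC01133, so it was the lesser of the pair in both groups. Itga7 went from 0.381 ± 0.0239 of the level of Itga6 to 0.0471 ± 0.00202. Itga3 took 54.2% ± 0.443 of the integrin alpha level in the controls and 65.7% ± 0.117 with LINC01133.

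Itgb1, the beta chain shared by most integrins of these cells, changed little. It had 664.3, 643.2 and 652.8 CPM in the controls and 718.3, 705.7 and 709.9 CPM with LINC01133. It was called higher, by 0.12 on the log2 scale (SE 0.0205, edgeR adjusted p = 3.8e-08). Its share of the integrin beta level, 73.6% ± 0.478 and 74.3% ± 0.748, differed by less than the SD of the LINC01133 libraries. That difference of 0.67 percentage points lay between 0.31 and 1.06 with 1 sample left out and turned to -2.14 on raw counts. The summed integrin alpha level per kilobase rose 1.60-fold, from 176.1 ± 1.09 to 281.5 ± 1.31 CPM per kilobase, and the beta level 1.08-fold, from 207.6 ± 2.25 to 223.9 ± 0.551. Itga3 alone went from 0.624 ± 0.0108 of the Itgb1 level per kilobase to 1.11 ± 0.0137.

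**Figure D3:**
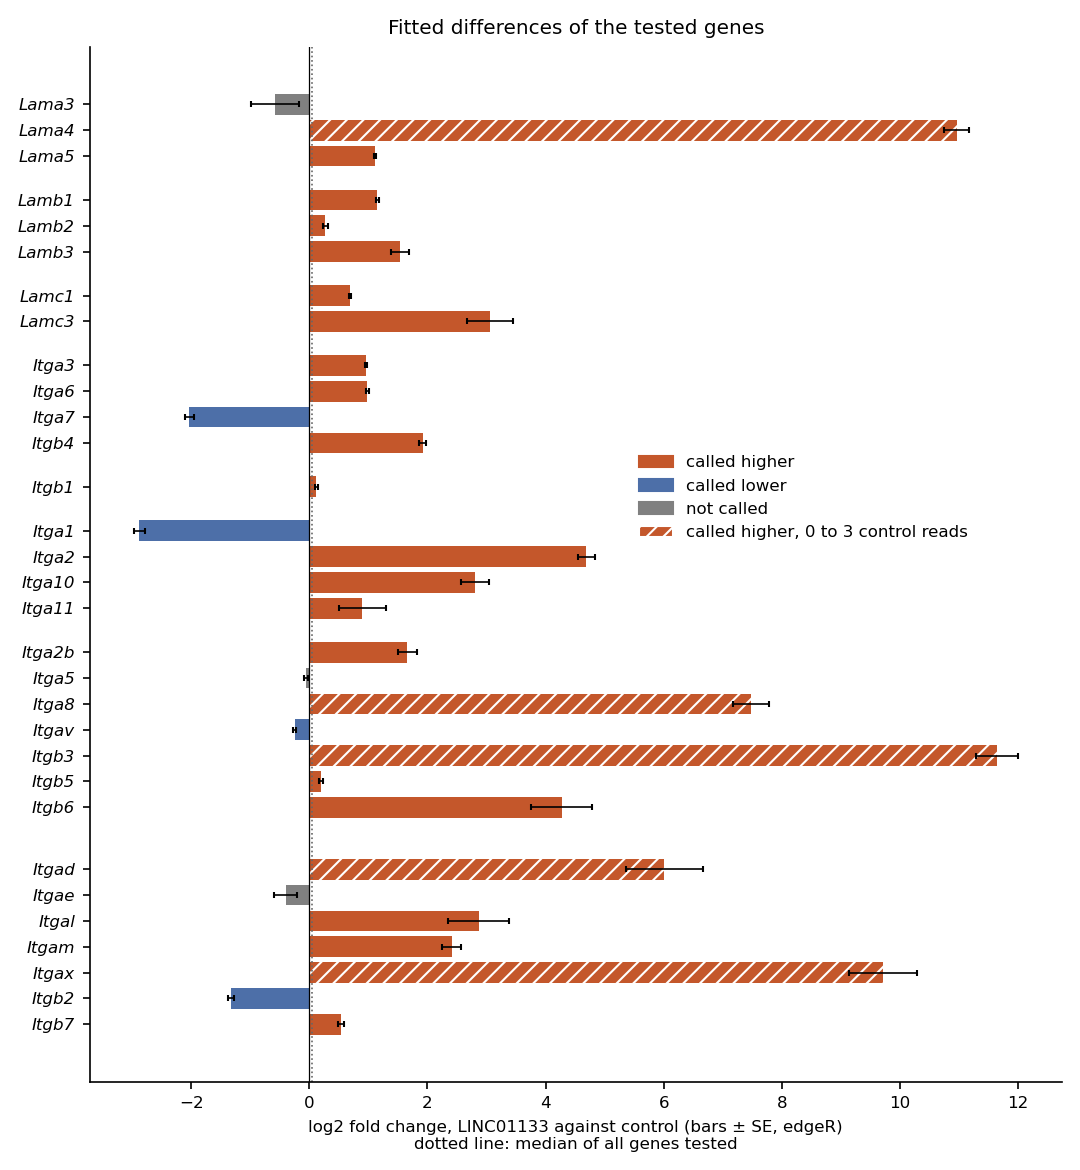
Fitted log2 fold change (LINC01133 against control) of tested genes of the family, with SE from the edgeR fit, grouped by role; the dotted line is the median of all genes tested, 0.05. Hatched bars had 0 to 3 control reads over the group, and their fitted length depends on the prior count of the fit; Itga1, Itga7, Itgb2 and Itgav fell.

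The collagen receptor chains exchanged places. Itga1, a collagen receptor chain of mesenchymal and smooth muscle cells, had 22.95, 28.15 and 25.6 CPM in the controls and 3.09, 3.78 and 3.44 CPM with LINC01133 (log2 fold change -2.88, SE 0.0918, edgeR adjusted p = 1.8e-61). Itga2, the collagen receptor chain of epithelial cells and platelets, had 0.779, 0.625 and 0.512 CPM and then 17.4, 16.1 and 16.4 CPM (4.69, SE 0.148, edgeR adjusted p = 6.2e-62). Per kilobase Itga2 stood at 0.0559 ± 0.0165 of the level of Itga1 in the controls and at 10.8 ± 1.53 times that level with LINC01133. Itga10, the collagen receptor chain of cartilage, rose from 7, 12 and 17 counts to 106, 127 and 117 (2.81, SE 0.237). Itga11, that of fibroblasts, was called higher at 5 to 10 counts in the controls and 15 to 22 with LINC01133 (0.90, edgeR adjusted p = 0.034). The groups overlapped, and that call was lost without the count filter and with the replicate block (both adjusted p = 0.062), in DESeq2 (adjusted p = 0.093) and limma voom (adjusted p = 0.053), and without control replicate 1 (adjusted p = 0.18), control replicate 3 (0.061), LINC01133 replicate 1 (0.14) or LINC01133 replicate 3 (0.093).

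Itga1 and Itga2 are neighbours on mouse chromosome 13, both on the minus strand, with 21.0 kb between them (Itga2 at 114833081 to 114932100 and Itga1 at 114953096 to 115101964 on mm10, from GENCODE M21). Their 250-base windows before the start are shown because the members of this gene pair moved in opposite directions (chr13:115101965-115102214 and chr13:114932101-114932350, minus strand, GRCm38.p6, from RefSeq).
Itga1: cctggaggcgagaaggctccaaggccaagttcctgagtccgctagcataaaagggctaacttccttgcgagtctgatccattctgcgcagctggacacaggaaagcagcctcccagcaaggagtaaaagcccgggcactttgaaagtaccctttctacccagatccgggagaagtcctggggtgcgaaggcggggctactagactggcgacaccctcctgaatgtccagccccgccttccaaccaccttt
Itga2: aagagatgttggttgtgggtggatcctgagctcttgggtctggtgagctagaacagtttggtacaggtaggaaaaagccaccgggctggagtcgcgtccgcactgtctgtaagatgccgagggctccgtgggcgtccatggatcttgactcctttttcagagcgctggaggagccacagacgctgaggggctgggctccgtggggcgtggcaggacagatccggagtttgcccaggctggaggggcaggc
Neither window held any of the GC box, E-box or AP-1 letters searched, so no base is in capitals. The window of Itga1 held 10 CpG and that of Itga2 12.

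**Figure D4:**
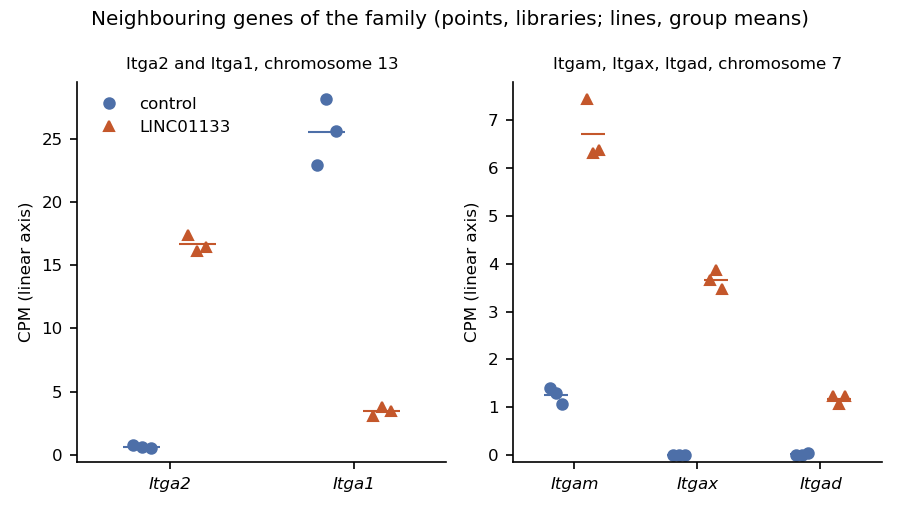
CPM of family members that lie next to each other on a chromosome, in each library on linear axes (circles, control; triangles, LINC01133; lines, group means). Itga2 rose as Itga1 fell, and Itgam, Itgax and Itgad all rose.

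Another set of neighbours holds the leukocyte chains Itgam, Itgax and Itgad on chromosome 7, all on the plus strand, with 11.1 kb between Itgam and Itgax and 3.7 kb between Itgax and Itgad. Itgam, the alpha chain of the complement receptor of myeloid cells, had 34, 31 and 25 counts in the controls and 219, 229 and 211 with LINC01133 (log2 fold change 2.41, SE 0.163). Itgax, the dendritic cell marker CD11c, had no read in the controls and 108, 140 and 115 counts, at least 88.0-fold higher with the same floor (edgeR adjusted p = 7.6e-34). Itgad had 0, 0 and 1 counts and then 36, 39 and 41, a ratio of 84.4 (exact 95% interval 14.9 to 3360). All 3 genes thus stood higher in every LINC01133 library, at no more than 7.44 CPM. Itgal, the LFA-1 alpha chain, lies 727.5 kb from Itgam and rose from 5, 0 and 2 counts to 16, 26 and 31 (2.87, SE 0.517; 3.99 without control replicate 1). The windows of Itgam (chr7:128062390-128062639, plus strand) and Itgax (chr7:128129300-128129549, plus strand) are shown as neighbours that moved together, with the same motifs in capitals.
Itgam: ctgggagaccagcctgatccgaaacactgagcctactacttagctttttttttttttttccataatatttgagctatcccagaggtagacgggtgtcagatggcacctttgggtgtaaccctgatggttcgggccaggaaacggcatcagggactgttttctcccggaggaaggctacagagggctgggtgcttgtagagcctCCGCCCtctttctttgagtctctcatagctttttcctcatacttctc
Itgax: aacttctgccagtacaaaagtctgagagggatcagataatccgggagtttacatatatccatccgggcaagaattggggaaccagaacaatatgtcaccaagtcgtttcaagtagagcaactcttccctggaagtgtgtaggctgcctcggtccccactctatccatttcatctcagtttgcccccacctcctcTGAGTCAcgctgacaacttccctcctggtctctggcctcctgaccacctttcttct
Itgam held a GC box, and Itgax held the AP-1 motif, alone among the 23 genes with a window. Itgam held 6 CpG and Itgax 5.

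Itgb2, the beta chain with which these 4 alpha chains pair, went the other way. It had 60.0, 58.8 and 56.9 CPM in the controls and 23.7, 24.4 and 22.2 CPM with LINC01133, and fell (log2 fold change -1.32, SE 0.0493, edgeR adjusted p = 8.8e-54). Itgb7, the beta chain that pairs with alpha4 or alphaE in lymphocytes, rose from 32.8, 34.1 and 32.2 CPM to 46.5, 50.5 and 46.1 CPM (0.53, SE 0.0487). Its partner Itgae was not called at 45 to 66 counts per library (-0.40, edgeR adjusted p = 0.053), and called lower without LINC01133 replicate 1 (-0.53, edgeR adjusted p = 0.022). Its partner Itga4 had no read in the controls and 6 with LINC01133. Of the 7 leukocyte-type chains 5 rose and 1 fell, beside 44.5% and 40.5% of all genes tested. Of the 5, Itgal, Itgax and Itgad had a control mean under 10 counts and were tested only because of their LINC01133 libraries. Per kilobase, Itgb2 and Itgb7 took 9.55% ± 0.199 and 5.95% ± 0.216 of the integrin beta level in the controls, and 3.54% ± 0.160 and 7.97% ± 0.386 with LINC01133. Markers of leukocytes summed to 14.6 to 15.5 CPM in the controls and 20.4 to 22.2 CPM with LINC01133, of which Cd14 made 9.66 ± 0.505 and 16.0 ± 0.641 CPM. Of the 11 found 7 were tested, of which 4 rose and 2 fell, beside 44.5% and 40.5% of all genes tested. Among the 4, Cd79a and S100a8 had 6 and 13 reads over the controls and passed the count filter through their LINC01133 libraries. Lyz2 and Laptm5 fell, from 135 to 13 and from 120 to 55 reads, and Lyz2 passed the filter through its controls. Cd3e and Adgre1 were among the markers with no read in the controls. Ptprc, which defines leukocytes, had 5 reads over the controls and 18 with LINC01133. Whether leukocyte RNA had a part in the levels of these chains was not tested.

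Among the chains of integrins that bind the RGD sequence of fibronectin and vitronectin, Itgav, Itga5 and Itgb5 differed little between groups. Of the scarce ones, Itgb3, Itga8 and Itgb6 passed the count filter through their LINC01133 libraries alone, so a test of them could only find a rise. Itgav, which pairs with beta1, beta3, beta5, beta6 or beta8, went from 263.1, 246.0 and 250.8 CPM to 209.8, 217.8 and 212.8 CPM (log2 fold change -0.25, SE 0.0250, edgeR adjusted p = 4.5e-17). By library size alone it was not called (-0.00, edgeR adjusted p = 0.95). Itga5, the fibronectin receptor chain, was not called, with 91.5, 95.1 and 94.6 CPM and then 87.8, 89.7 and 93.0 CPM (-0.06, edgeR adjusted p = 0.11). By library size alone it was called higher (0.19, edgeR adjusted p = 2.1e-06), and without control replicate 1 it was called lower (-0.08, edgeR adjusted p = 0.042). Itgb5, a vitronectin receptor chain, rose from 68.45, 70.8 and 70.1 CPM to 76.4, 80.6 and 82.6 CPM (0.20, SE 0.0363).

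Itgb3, which pairs with alphav or, in platelets, with alphaIIb, had no read in any control library. With LINC01133 it had 423, 527 and 439 counts, or 14.4, 14.5 and 13.3 CPM, at least 337-fold higher by the same floor (edgeR adjusted p = 4.1e-63). It then stood at 0.108 ± 0.00518 of the level of Itgav per kilobase and 0.0981 ± 0.00787 of that of Itgb5. Itga2b, the alphaIIb chain, rose from 46, 33 and 38 counts to 159, 173 and 175 (log2 fold change 1.66, SE 0.164). Platelet markers summed to 1.20 to 1.52 CPM in the controls and 5.16 to 5.38 CPM with LINC01133. Of the 4 found, Gp1ba went from 44 reads over the controls to 319 (log2 fold change 2.39) and Ppbp from 44 to 163 (1.43), and both were called higher. Gp9 went from 6 to 31 reads and Pf4 from 0 to 7, and neither was tested. The part of the platelet marker list in the rise of Itga2b, Itgb3 and Itga2, like that of the other marker lists beside the genes they move with, was not tested.

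Itga8, whose pair with beta1 binds nephronectin, had 1, 0 and 2 counts in the controls and 241, 295 and 279 with LINC01133. The ratio was 198 (exact 95% interval 67.4 to 960; edgeR adjusted p = 3.5e-50). Its ligand gene Npnt, no member of the family, went from 13 to 2206 reads over the 3 libraries and from 0.181 ± 0.121 to 22.4 ± 0.775 CPM (log2 fold change 6.91, SE 0.175). Npnt too passed the count filter through its LINC01133 libraries alone, so its test could only find a rise. Itgb6, an epithelial beta chain whose pair with alphav activates TGF-beta, rose from 0, 3 and 1 counts to 36, 47 and 31 (4.27, SE 0.520; 5.52 without control replicate 2). Itgb8, the other beta chain known for activating TGF-beta, was below the filter, with 3 reads over the controls and 14 with LINC01133, a ratio of 3.39 (exact 95% interval 0.947 to 18.4). Itga9, which binds tenascin and VCAM-1, was also below it, with 0, 0 and 3 counts and then 23, 17 and 11.

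Of the genes that work with the family, those of the basement membrane went both ways. From a list of 26 found, 19 were tested, of which 11 rose and 6 fell, beside 44.5% and 40.5% of all genes tested. By library size alone 12 rose and 4 fell. The median log2 fold change was 0.61, beside 0.05 over all genes. Part of these counts and of this median was fixed by the filter. Nid1, Npnt and Fras1 had 3, 13 and 25 reads over the controls and passed through their LINC01133 libraries, and all were called higher. Col15a1, with 13 reads over the LINC01133 libraries, passed through its controls and was called lower. No background at a matched control level was made for this list. Tinagl1, a matrix protein that binds integrins, rose from 158.5 ± 7.32 to 615.3 ± 13.2 CPM (1.96). Col4a1, a chain of the collagen network of the basement membrane, rose from 230.0 ± 6.10 to 422.1 ± 4.14 CPM (0.88), and Col7a1, the anchoring fibril collagen, from 32.5 ± 1.95 to 97.5 ± 1.80 CPM (1.59). Fbln2, a fibulin that binds laminins, fell from 437.8 ± 2.19 to 99.8 ± 2.80 CPM (-2.13), the SPARC relative Smoc1 from 56.2 ± 3.49 to 10.1 ± 1.41 CPM (-2.47) and Sparc from 274.2 ± 8.71 to 157.7 ± 1.69 CPM (-0.80). Pxdn, the peroxidase that crosslinks this collagen, fell by 0.24 on the log2 scale, a call lost on library sizes alone (-0.00, edgeR adjusted p = 0.98).

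Of the 4 hemidesmosome partners of Itgb4 2 rose and 2 fell (median log2 fold change 0.20), against 3 and 1 by library size alone. These counts stand beside 44.5% higher and 40.5% lower over all genes tested and are no result about the list. Plec, which encodes plectin, rose from 1219 ± 33.6 to 1757 ± 45.6 CPM (log2 fold change 0.53), and Col17a1, a transmembrane collagen, from 2.88 ± 0.459 to 5.74 ± 0.895 CPM (1.00). Dst, which encodes the bullous pemphigoid antigen among other forms, fell from 697.6 ± 6.88 to 426.7 ± 2.25 CPM (-0.71). Cd151, the tetraspanin of laminin-binding integrins, was called lower with TMM scaling (-0.13), called higher on library sizes alone (0.11) and not called with upper-quartile scaling (-0.03).

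Of the laminin receptors that are not integrins and the enzymes that glycosylate dystroglycan, 4 of 11 rose and 6 fell (median log2 fold change -0.10), against 8 and 2 by library size alone. Over all genes tested 44.5% rose and 40.5% fell, and the counts of so short a list are not read as a result about it. Bcam, a receptor for laminin alpha5, rose from 0.126 ± 0.0737 to 3.51 ± 0.338 CPM (4.77). With 9 reads over the controls and 349 with LINC01133, it passed the count filter through its LINC01133 libraries alone, so its test could only find a rise. Dag1, which encodes dystroglycan, was called lower with TMM or upper-quartile scaling (-0.17 and -0.07) and higher on library sizes alone (0.07). Large, the enzyme that extends the laminin-binding sugar of dystroglycan, fell from 74.7 ± 3.54 to 15.7 ± 0.971 CPM (-2.25), and Rpsa, a ribosomal protein also described as a laminin receptor, whose many processed pseudogenes make its count uncertain, from 629.2 ± 8.61 to 311.3 ± 4.23 CPM (-1.02). Of the other enzymes, Pomgnt1 and Ispd rose by 0.42 and 0.98, and Pomt1 fell by 0.35, a call lost on library sizes alone (-0.10, edgeR adjusted p = 0.13).

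Among other ligands of integrins, 8 of 16 were higher and 7 lower (median log2 fold change 0.09), near the 44.5% and 40.5% of all genes tested, so the count is no result about this list. Mfge8, a ligand of alphav beta3 and alphav beta5, rose from 105.0 ± 5.56 to 309.0 ± 2.89 CPM (1.56), and Vcam1, a ligand of alpha4 and alpha9, from 1.07 ± 0.345 to 11.3 ± 0.499 CPM (3.38). Fn1, which encodes fibronectin, rose by 0.36 and Ctgf, a matricellular ligand, by 1.66. Spp1, which encodes osteopontin, fell from 1399 ± 9.14 to 871.8 ± 11.4 CPM (-0.68), Thbs1 from 590.0 ± 12.1 to 394.7 ± 2.46 CPM (-0.58), Cyr61 from 239.4 ± 4.56 to 174.1 ± 3.83 CPM (-0.46) and Col1a1, also among the fibroblast markers, from 3.95 ± 0.298 to 1.10 ± 0.160 CPM (-1.84).

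Inside the cell, of the genes of integrin activation and of the adhesion plaque 17 of 35 tested rose and 16 fell (median log2 fold change 0.04), again near the 44.5% and 40.5% of all genes tested. Both talins, which bind integrin beta tails and activate the receptor, fell, Tln1 from 1008 ± 21.5 to 444.7 ± 7.91 CPM (-1.18) and Tln2 from 208.9 ± 3.36 to 32.2 ± 1.34 CPM (-2.70). Parvb, a parvin of the complex with integrin-linked kinase, fell from 115.5 ± 5.79 to 28.8 ± 1.02 CPM (-2.00), and Apbb1ip, which links Rap1 to talin, from 23.1 ± 1.47 to 2.88 ± 0.299 CPM (-3.01). Paxillin (Pxn) rose from 86.1 ± 1.24 to 172.9 ± 0.986 CPM (1.01), the kinase gene Src from 94.6 ± 4.07 to 221.9 ± 7.44 CPM (1.23), and Krit1, a binding partner of an integrin inhibitor, from 35.4 ± 1.99 to 63.1 ± 2.59 CPM (0.83). Tns4, a tensin, rose from 83 to 56171 reads over the 3 libraries (8.94). Errors are SD with n = 3.

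**Figure D5:**
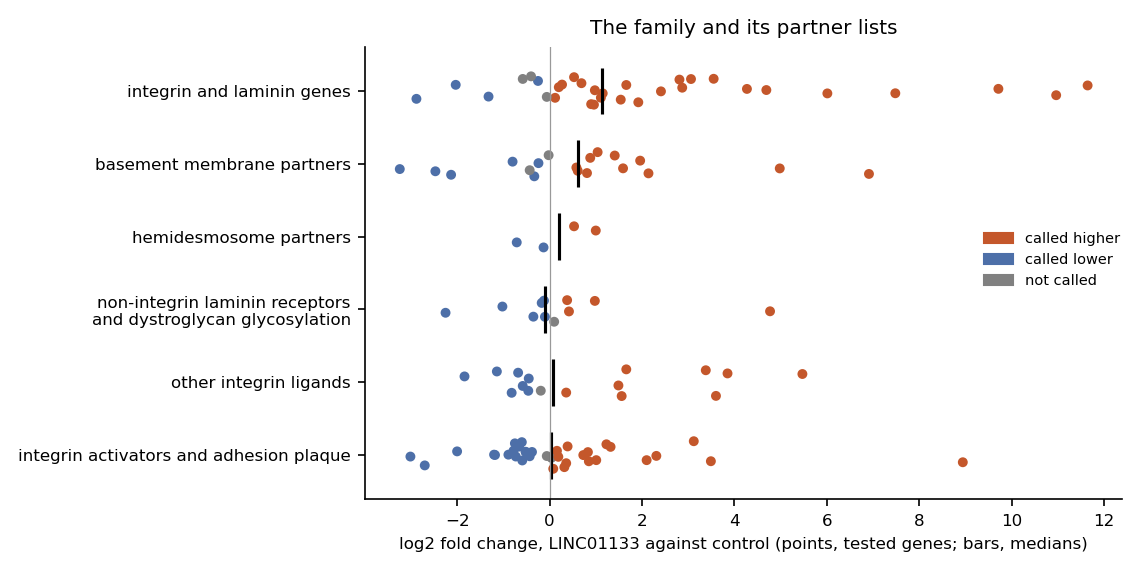
Fitted log2 fold changes of the tested integrin and laminin genes and of the tested genes of the 5 partner lists (points, with vertical jitter only for display; bars, medians). The medians were 1.13 for the family and 0.61, 0.20, -0.10, 0.09 and 0.04 for the lists from top to bottom; members of each list lie on both sides of 0.

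Exons of another GENCODE M21 gene overlap those of 12 of the 37 genes, and without a stated strand such reads cannot be assigned with certainty. For 4 of them a partner has a row of its own: Mettl7b beside Itga7 had 181 and 221 reads over the groups, Cox6a2 beside Itgad 20 and 10, Cerkl beside Itga4 1 and 3, and E030013I19Rik beside Itga8 0 and 2. The other 8 are Lamc3, Itgav, Itga10, Itgam, Lama2, Itgb4, Itga1 and Lama3.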

How the data were processed

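The 6 libraries of 4T1 RNA were Illumina TruSeq, per the labels' protocols. The deposited table holds raw counts of each gene as whole numbers beside a gene length in bases, per the file headers. The submitters' processing notes name mm10 and bcl2fastq. The sources used here name no aligner, counting tool, annotation or strand setting. Columns of no sample numbered 0. Within groups, replicates differed by a chi-square statistic of 1.61 to 2.32 per degree of freedom, above sampling noise, so no 2 samples were taken for the same library; whether they are independent cultures is not shown by this.

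The whole table was fitted with edgeR 4.0.16 (R 4.3.3): TMM, filterByExpr on the groups, robust quasi-likelihood F test, Benjamini-Hochberg adjustment over 14116 genes, threshold 0.05. SE is the log2 fold change divided by the square root of F. Floors are 3 counts over a group (in 1 library, 0.0886 to 0.118 CPM), and floors and exact 95% intervals cover counting error only. The genes, lists and naming rule were chosen with earlier results of these data known. The rule names every member of the family, the whole of lists of up to 5 genes, and otherwise up to 4 called genes per direction by smallest p; single markers beyond it were picked after their values were seen. Alternatives were 3 scalings, 2 filters, DESeq2 1.42.0, limma 3.58.1 voom, no robust option, a replicate block, each sample left out, the Rn45s row left out, and raw counts for shares; the 2-fold counts were followed through them after the data were seen. The LINC01133 transcript was not analysed here, and a few genes that the rule names are not reported here, though counts over the family and the lists include them. Figures used matplotlib 3.10.9.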

Additional observations from a re-analysis of the deposited data

How the results depend on the processing

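The count of integrin and laminin genes called higher was 25 and lay between 23 and 26 over the alternatives on all samples, and 24 to 27 with 1 sample left out; that of genes called lower was 4, and lay between 3 and 4 and between 4 and 5. Genes at least 2-fold higher numbered 17 to 20 and lower 3 under all settings. Of the 32 fold changes, Itga5 turned in direction, from -0.06 to 0.19 on library sizes alone and 0.04 with upper-quartile scaling. With Itgav by library size alone and Itga11 under 8 settings, the call was lost. With the replicate block, which changed no other call in the family, Itga11 had 0.89 (edgeR adjusted p = 0.062), and 24 genes were higher and 4 lower. Same-numbered samples did not deviate together (r = -0.0232 to -0.0132 of deviations from the group means), so the numbers do not pair them. In the partner lists, hemidesmosome genes called lower became 1 on library sizes alone and 1 with upper-quartile scaling, and the other laminin receptors 8 higher and 2 lower by library size alone. Other ligands called higher became 5 when 1 CPM was required in 3 libraries, since fewer genes were tested. With raw counts in place of levels per length, the difference in share was 2.56 percentage points for Lama4 (3.15 per length) and -2.14 for Itgb1 (0.67). Of 22 other shares that moved, Lamb2 went from -6.27 to -4.08 points and Itgb7 from 2.02 to 1.16. Depth limits Lama3, Itga11, Itga4, Itga9, Lama1, Lama2 and Itgb8, all under 30 counts per library.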
